A study of Mus musculus with 44 samples.

Results

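The 10 genes described here encode the NF-kB transcription factor subunits Nfkb1, Nfkb2, Rel, Rela and Relb and the IkB proteins Nfkbia, Nfkbib, Nfkbie, Nfkbiz and Bcl3. They were chosen by name, as members of these families, out of 46078 genes in the table, with earlier results of these data known, and 10 of 10 passed the filter on low counts. NF-kB subunits work as dimers. In a resting macrophage the classical inhibitors Nfkbia, Nfkbib and Nfkbie hold those dimers in the cytoplasm. A signal from a pattern receptor activates the IKK kinase, the inhibitors are degraded, and the freed dimers enter the nucleus and switch on inflammatory genes, among them several genes of the pathway itself. Nfkbiz and Bcl3 are atypical IkB proteins that act in the nucleus with the DNA-binding products of Nfkb1 and Nfkb2.

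Messenger RNA was measured in 44 libraries of peritoneal macrophages from C57BL/6 mice, elicited with thioglycolate and pooled from several mice into 1 isolate. Adherent cells in DMEM with serum received an extract of H9c2 cells, a line derived from rat heart, at 10 µg/mL, lipopolysaccharide (LPS, a bacterial ligand of the receptor Tlr4) at 100 ng/mL, interleukin 4 (IL-4, the cytokine of alternative activation) at 10 ng/mL, or nothing, for 8, 24 or 72 h. By the title of the series the extract stands for damage-associated molecular patterns, and the question was how these polarize macrophages. Each of the 12 groups had 4 cultures, except cell extract at 24 h and 72 h, IL-4 at 72 h and control at 72 h, which had 3. All cultures came from 1 isolate, so p-values measure the spread between its cultures and not between mice.

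Libraries held 0.908 to 26.6 M counts in genes, and the lowest count of a member in any library was 3, for Bcl3 in an IL-4 culture at 8 h. The label was checked with 6 macrophage markers, and 6 of 6 had reads in every group, with a summed level of 7133 to 30856 CPM per library. At 8, 24 and 72 h that sum was 10931 to 13161, 20072 to 20750.5 and 24044 to 30856 CPM with cell extract. With LPS it was 8437 to 9351, 7133 to 8392 and 10123 to 17980 CPM. Control cultures had 13667 to 15892, 10128.5 to 15863 and 10133.5 to 18286 CPM, and IL-4 cultures overlapped them at each time. The summed level of 10 mesothelial and fibroblast markers was 487 to 1160 CPM in control cultures at 72 h and at most 405 CPM in any other library. The summed level of 5 neutrophil markers was 299.7 to 496 CPM in LPS cultures at 72 h and at most 183 CPM elsewhere. No marker was at 0 in LPS cultures at 72 h, nor in cell-extract cultures at 72 h, where the sum was 32.3 to 42.5 CPM. Every other group had at least 1 marker at 0. These were Ly6g or Ngp in most groups, Camp with IL-4 at 8, 24 and 72 h and S100a9 with IL-4 at 24 h. In 7 libraries, all with replicate number 3, the most counted gene was the ribosomal gene Rn18s-rs5, at 3.75% to 7.73% of counts. Fits were repeated without these 7 libraries, as given below. The part of the differences in marker levels in the results was not tested. Levels below are TMM-scaled CPM, the counts of a gene relative to those of its library, in the order of the replicate numbers, means carry the SD over cultures, and n is as given above. RNA came from whole cultures, so a change in the cells present and a change in RNA per cell cannot be told apart.

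Several members are textbook targets of NF-kB, and the DNA around their starts was searched for its binding motif. RefSeq promoter windows of GRCm38.p6, which run from 250 bases before to 50 bases after a gene's start, were found for 7 of 10 members. Nfkb1, Relb and Nfkbiz had none. The stretches below are printed 5′ to 3′ on the strand of the gene to show where the motif lies. Capitals mark matches, on either strand, to the kB decamer consensus or to the stricter motif GGGANTTTC, and overlapping matches are run together.

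Nfkbia: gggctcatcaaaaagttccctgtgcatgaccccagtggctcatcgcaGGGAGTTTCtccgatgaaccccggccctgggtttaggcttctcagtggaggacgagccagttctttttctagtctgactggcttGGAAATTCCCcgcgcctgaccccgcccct
Nfkb2: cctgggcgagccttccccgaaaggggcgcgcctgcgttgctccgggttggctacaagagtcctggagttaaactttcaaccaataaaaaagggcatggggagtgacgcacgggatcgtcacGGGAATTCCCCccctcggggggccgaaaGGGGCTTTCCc
Rel: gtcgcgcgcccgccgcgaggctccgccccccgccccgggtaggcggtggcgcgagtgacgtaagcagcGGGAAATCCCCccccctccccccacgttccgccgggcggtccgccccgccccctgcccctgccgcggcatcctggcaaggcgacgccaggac
Nfkbie: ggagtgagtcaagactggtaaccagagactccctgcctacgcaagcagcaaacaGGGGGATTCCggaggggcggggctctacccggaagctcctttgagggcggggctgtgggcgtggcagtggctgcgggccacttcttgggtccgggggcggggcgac
Bcl3: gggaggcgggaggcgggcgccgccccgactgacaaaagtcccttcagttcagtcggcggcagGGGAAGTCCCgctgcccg
Rela: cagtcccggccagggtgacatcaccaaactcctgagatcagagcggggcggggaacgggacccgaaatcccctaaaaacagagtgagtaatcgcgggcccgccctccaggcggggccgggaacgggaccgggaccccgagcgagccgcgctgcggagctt

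The Nfkbia stretch (chr12:55492648-55492807, minus strand) holds 2 marked sites, at -113 to -105 and at -29 to -20 from the start. The Nfkb2 stretch (chr19:46304577-46304736, plus strand) belongs to 1 of 3 windows of that gene and holds sites at -39 to -29 and at -11 to -2. The Rel stretch (chr11:23770970-23771129, minus strand) holds overlapping matches from -92 to -82, and the Nfkbie stretch (chr17:45555540-45555699, plus strand) a match from -106 to -97. In the Bcl3 stretch (chr7:19822736-19822815, minus strand), which has 60 bases before and 20 after the start, the match lies just inside the transcript, at 3 to 12. The Rela stretch (chr19:5637381-5637540, plus strand) holds none, nor does the window of Nfkbib. Nfkb2 has 3 windows, of which the last 2 overlap and share a match, so each gene was counted once, whichever of its windows held the motif. The decamer consensus was found in 5 of the 7 members with a window (71.4%) and in 5.14% of all 27025 genes with one. The stricter motif was found in 2 members, Nfkbia and Nfkb2 (28.6%), and in 1.29% of all genes. A match is a run of letters and not a measured site.

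**Figure D1:**
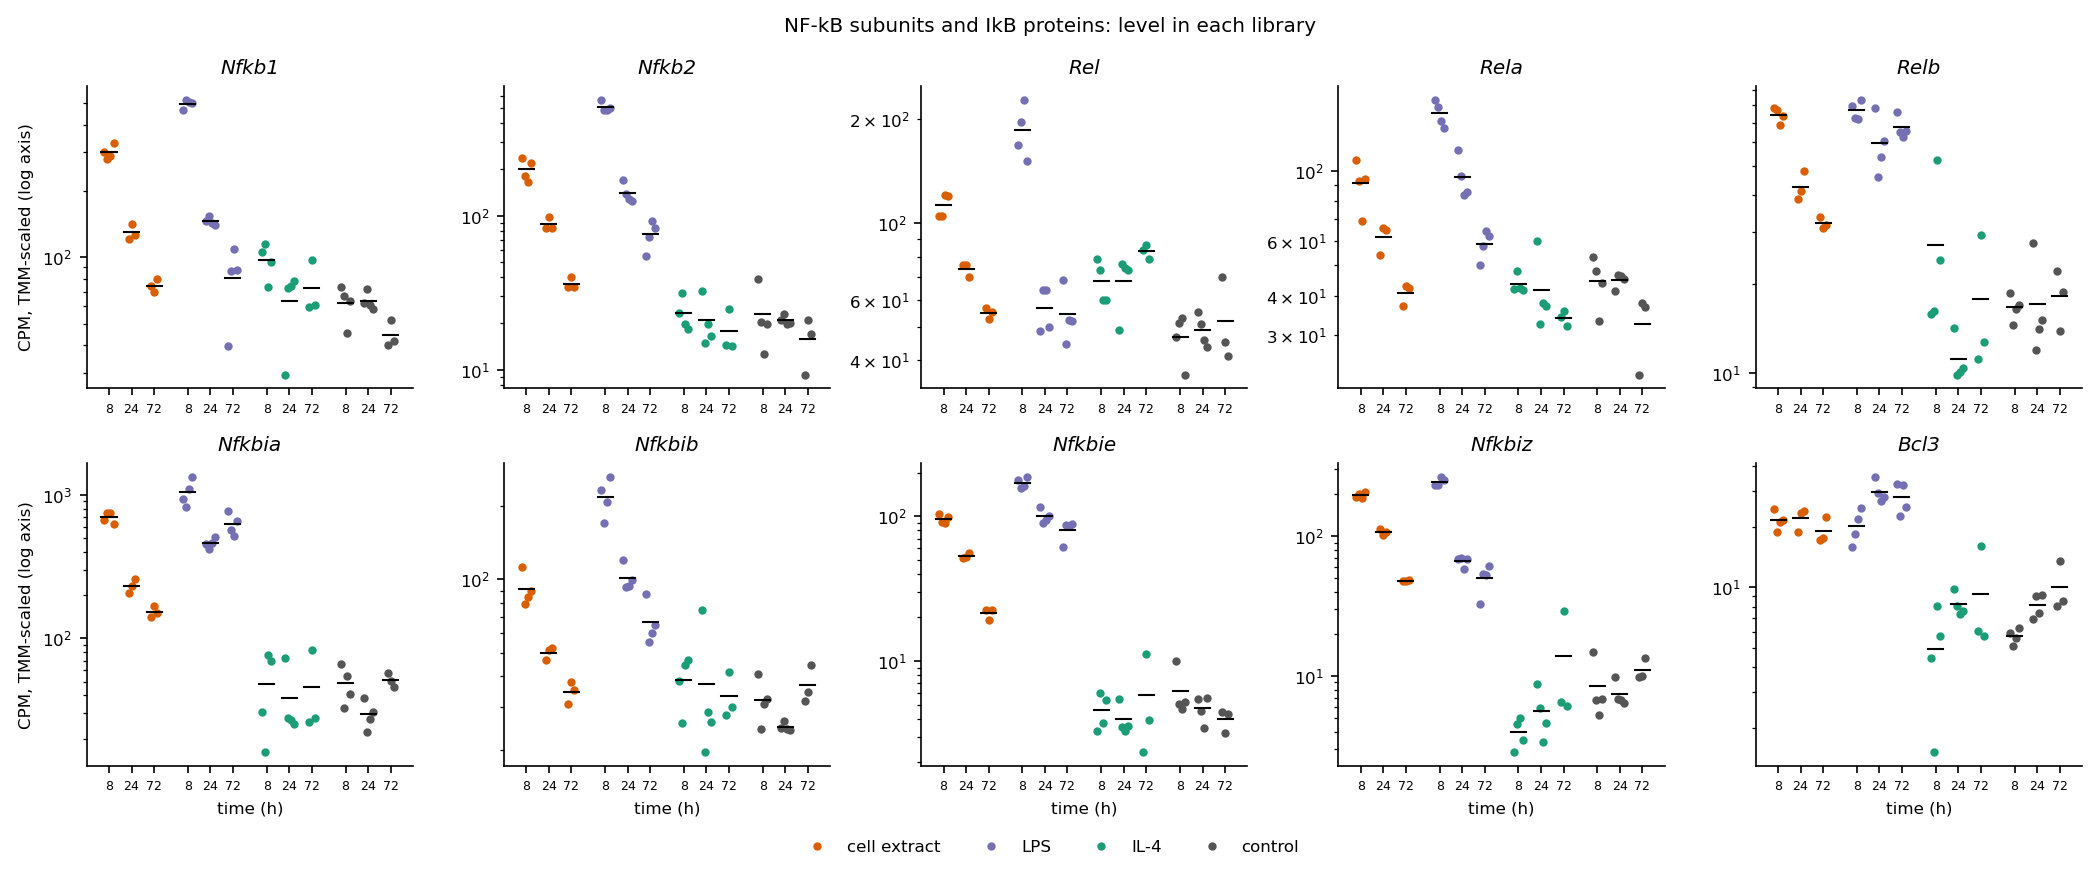
Level of each member in every library (TMM-scaled CPM, log axis) at 8, 24 and 72 h for cell extract, LPS, IL-4 and control; points are libraries and bars are group means. At 8 h the 4 cell-extract and 4 LPS libraries lie above all 4 control libraries for each of the 10 members, while the ranges of IL-4 and control libraries overlap for 8 of 10. Overlap was not counted over all tested genes.

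At 8 h cell extract raised 10 of 10 members and LPS raised 10 of 10, and in both comparisons every stimulated library lay above every control library for each member. Such separation was not counted over all tested genes, here or below. The share of all 14537 tested genes called higher was 13.0% for cell extract and 21.3% for LPS. The call is an adjusted p under 0.05 in edgeR's quasi-likelihood test. At 24 h cell extract raised 10 of 10 (11.7% of all tested genes) and LPS 9 of 10 (18.6%), and at 72 h cell extract raised 6 of 10 (14.2%) and LPS 9 of 10 (16.1%). IL-4 raised 2 of 10 at 8 h (4.29%), 1 of 10 at 24 h (4.74%) and 2 of 10 at 72 h (13.2%), with Rel among them each time and Nfkb1 at 8 h and 72 h. These IL-4 counts were 0 at each time when the compared groups were fitted alone, and ran over 0 to 3, 0 to 1 and 0 to 2 at 8, 24 and 72 h with single libraries left out. The median change over the members was 2.21, 1.39 and 0.87 on the log2 scale for cell extract at 8, 24 and 72 h, 2.88, 1.94 and 1.66 for LPS, and -0.01, -0.10 and 0.16 for IL-4. Medians over all tested genes lay between -0.07 and 0.05.

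No member was called lower against control by edgeR in any of these 9 comparisons. The shares of all tested genes called lower were 17.2%, 10.4% and 12.2% for cell extract at 8, 24 and 72 h, 24.1%, 19.3% and 15.4% for LPS, and 4.04%, 4.76% and 10.5% for IL-4. At an unadjusted p under 0.05 the counts of lower members were 0 in the 6 comparisons of cell extract or LPS, and 1, 1 and 0 for IL-4 at 8, 24 and 72 h. DESeq2 called 1 lower, Nfkbiz with IL-4 at 8 h, and 0 in the other 8 comparisons. Shares of all tested genes at an unadjusted p or by DESeq2 are not given, here or below.

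Nfkb1 and Nfkb2 encode precursor proteins that are cut to the DNA-binding subunits p50 and p52. Nfkb1 (chr3:135584655-135691547, minus strand, GRCm38) stood at 299, 280.3, 289 and 330.05 CPM in cell-extract cultures at 8 h, at 465, 518, 504 and 501 CPM in LPS cultures, at 106, 115, 73.3 and 94.9 CPM in IL-4 cultures and at 73.6, 67.1, 45.6 and 63.2 CPM in control cultures. LPS libraries were highest, cell-extract libraries came next without overlap, and IL-4 and control libraries overlapped. Nfkb1 was 4.79-fold higher with cell extract (log2 2.26 ± 0.20 SE, adjusted p = 8.17e-12) and 7.95-fold higher with LPS (log2 2.99 ± 0.21, adjusted p = 2.01e-15). With IL-4 it was 1.56-fold higher at 8 h (adjusted p = 0.037), not called at 24 h (adjusted p = 0.917) and 1.62-fold higher at 72 h (adjusted p = 0.0282). The 8 h call was lost in 9 settings (adjusted p of 0.0501 to 0.205): in the fit of the 2 groups alone, without the Rn18s-rs5 libraries, and without IL-4 replicate 1, 2 or 4, control replicate 2, 3 or 4 or cell extract at 72 h replicate 3. At 72 h the IL-4 libraries stood at 59.4, 96.8 and 60.8 CPM for replicates 2, 3 and 4, and without replicate 3 the log2 change was 0.45, against 0.70 with it. That 72 h call was lost in 5 settings (adjusted p of 0.053 to 0.213): without IL-4 replicate 3, control replicate 1 or control replicate 4, with RLE size factors and in the fit of the 2 groups alone. At 24 h it was 2.05-fold higher with cell extract and 2.31-fold higher with LPS, and at 72 h 1.68-fold (adjusted p = 0.0179) and 1.86-fold (adjusted p = 0.00194). The call with cell extract at 72 h was lost without replicate 4 of cell extract or replicate 1 or 4 of control (adjusted p of 0.0591 to 0.0788), and that with LPS in the fit of the 2 groups alone (adjusted p = 0.0529). At 72 h the LPS libraries stood at 39.5, 86.5, 109 and 87.4 CPM, and the first of these, from a library of 1.10 M counts, lay below the lowest control library, at 39.9, 51.9 and 41.7 CPM. Over the 12 groups the mean level was highest in LPS at 8 h (497 CPM), then in cell extract at 8 h (299.6 CPM), LPS at 24 h (146 CPM) and cell extract at 24 h (129.7 CPM), the last pair overlapping. The other 8 groups had means of 44.5 to 97.3 CPM, each overlapping its neighbour in that order.

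Nfkb2 (chr19:46304320-46312385, plus strand) had the larger response of the pair. It stood at 238, 180.4, 166 and 218 CPM in cell-extract cultures at 8 h, at 563, 485, 482 and 495 CPM in LPS cultures and at 38.6, 20.6, 12.6 and 19.8 CPM in control cultures. The 3 ranges did not overlap. The fold was 8.7 with cell extract (log2 3.12 ± 0.24, adjusted p = 1.05e-13) and 22 with LPS (log2 4.46 ± 0.25, adjusted p = 3.65e-18). At 24 h Nfkb2 stood at 88 ± 8.47 CPM with cell extract and 140.2 ± 19.9 CPM with LPS, against 21.1 ± 1.37 CPM in control cultures, and it was called higher with both. At 72 h the values were 34.3, 39.8 and 34.3 CPM with cell extract, 54.9, 72.3, 92.1 and 82.9 CPM with LPS and 9.33, 21 and 17.1 CPM in control cultures. All 3 cell-extract libraries and all 4 LPS libraries still lay above all control libraries, at 2.34-fold (adjusted p = 0.00183) and 5.01-fold (adjusted p = 1.68e-08). In the order of group means the 6 groups of cell extract and LPS came first, and the 6 groups of IL-4 and control, at 15.8 to 23.2 CPM with neighbours overlapping, came last. Exons of Nfkb2 overlap those of Psd and AC114539.1 on the opposite strand, and the strand setting of the counting is unknown here, so reads of these genes cannot be told apart.

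Rela and Rel encode activating partners of p50. Rela (chr19:5637483-5648130, plus strand) stood at 108, 93.1, 69.4 and 94.1 CPM in cell-extract cultures at 8 h, at 168, 159.99, 144 and 137 CPM in LPS cultures and at 53.3, 48, 33.2 and 43.8 CPM in control cultures. The 3 ranges did not overlap, and the change was the smallest of the 10 members with either stimulus: 2.04-fold with cell extract (log2 1.03 ± 0.15, adjusted p = 7.41e-07) and 3.4-fold with LPS (log2 1.77 ± 0.15, adjusted p = 1.08e-12). With LPS it was still 2.12-fold higher at 24 h and 1.86-fold higher at 72 h (adjusted p = 0.000128). With cell extract it was 1.37-fold higher at 24 h (adjusted p = 0.0403), and 3 of 3 libraries lay above all 4 control libraries. That call was lost without any 1 of the 4 control libraries and without replicate 3 or 4 of cell extract or with no filter on low counts (adjusted p between 0.0607 and 0.151). At 72 h Rela did not pass (log2 0.35, 95% interval -0.04 to 0.74). Group means ran from 152 CPM (LPS at 8 h) to 32.5 CPM (control at 72 h), and cell extract at 72 h, at 40.8 CPM, lay among the IL-4 and control groups.

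Rel (chr11:23736847-23770970, minus strand), which encodes c-Rel, stood at 105, 105, 121 and 119.8 CPM with cell extract at 8 h, at 169, 196, 228 and 152 CPM with LPS, at 78.9, 73.2, 59.6 and 59.8 CPM with IL-4 and at 46.6, 51.5, 53.1 and 36.3 CPM in control cultures. These 4 ranges did not overlap. The folds were 2.4 for cell extract (log2 1.26 ± 0.15, adjusted p = 9.35e-09), 3.98 for LPS (log2 1.99 ± 0.15, adjusted p = 3.47e-14) and 1.46 for IL-4 (log2 0.54 ± 0.15, adjusted p = 0.0199). At 24 h Rel was 1.51-fold higher with cell extract (adjusted p = 0.00458), with 3 of 3 libraries above all control libraries, and 1.43-fold higher with IL-4 (adjusted p = 0.0242), with overlapping ranges. With LPS at 24 h it did not pass (log2 0.22, 95% interval -0.09 to 0.53). At 72 h the log2 change was 0.05 with cell extract (interval -0.31 to 0.42) and 0.01 with LPS (interval -0.34 to 0.36), neither called. IL-4 cultures at 72 h stood at 83.8, 86.3 and 78.9 CPM, against 70, 45.2 and 41.2 CPM in control cultures. All 3 lay above all control libraries (1.57-fold, log2 0.65 ± 0.18, adjusted p = 0.00643), and among the 12 group means IL-4 at 72 h came next after LPS and cell extract at 8 h. The IL-4 call of Rel at 8 h was lost without IL-4 replicate 1 or control replicate 4, with no filter and in the fit of the 2 groups alone (adjusted p of 0.0631 to 0.13). At 24 h it was lost in 8 settings, among them without IL-4 replicate 2, 3 or 4 and without control replicate 3 or 4 (adjusted p of 0.0533 to 0.109), and at 72 h in 3, among them without control replicate 4 (adjusted p of 0.0538 to 0.0678). From the fifth group mean of Rel down, each group overlapped the one above it.

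Relb (chr7:19606217-19629438, minus strand) encodes RelB, the partner of p52 in the non-canonical arm of the pathway. At 8 h it stood at 78.1, 77, 68.8 and 73.5 CPM with cell extract, at 79.3, 72.4, 72.1 and 83.5 CPM with LPS and at 18.7, 14.6, 16.5 and 16.9 CPM in control cultures. Cell-extract and LPS libraries overlapped, and both lay above control libraries: the folds were 4.48 with cell extract (log2 2.16 ± 0.25, adjusted p = 4.91e-09) and 4.62 with LPS (log2 2.21 ± 0.25, adjusted p = 1.34e-09). In LPS cultures Relb stood at 59.7 ± 14 CPM at 24 h and 67.5 ± 5.92 CPM at 72 h, 3.56-fold and 3.63-fold above control. With cell extract it was 2.56-fold higher at 24 h, and at 72 h stood at 33.7, 30.8 and 31.7 CPM, against 22.1, 13.9 and 18.7 CPM in control cultures. Those ranges did not overlap, but the change missed the threshold (1.74-fold, log2 0.80 ± 0.31, adjusted p = 0.0541). It passed without any 1 of 20 libraries. IL-4 cultures at 8 h stood at 15.9, 16.1, 52.2 and 24 CPM, 1 of them apart from the others, and Relb was not called with IL-4 at any time (95% intervals 0.06 to 1.17, -1.23 to -0.10 and -0.70 to 0.57 at 8, 24 and 72 h). LPS and cell extract at 8 h, LPS at 72 h, LPS at 24 h and cell extract at 24 h led the order of means, each overlapping the next.

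**Figure D2:**
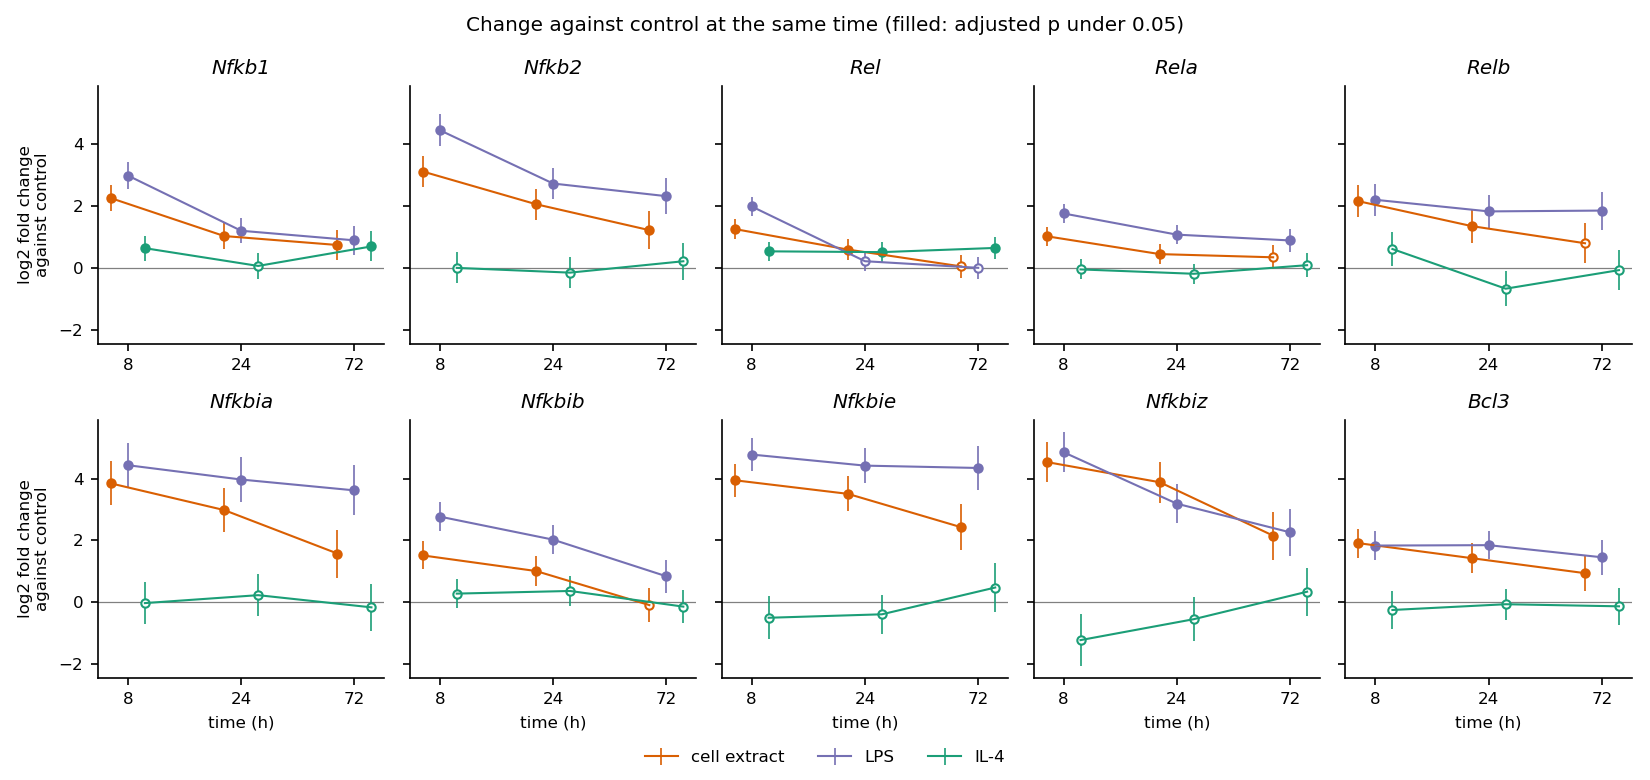
Fitted log2 fold change of each member against control at the same time, for cell extract, LPS and IL-4; bars are 95% intervals and filled points passed an adjusted p under 0.05. Nfkbia, Nfkbie and Relb stand at log2 1.58, 2.43 and 0.80 with cell extract at 72 h and at 3.62, 4.34 and 1.86 with LPS.

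Levels of different genes can be set side by side only per length, so CPM was divided by the exon length of each gene in kb. On that scale Rela was the most abundant subunit in control cultures at 8 h, at 14.5 CPM per kb, before Rel (6.28), Nfkb1 (5.17), Nfkb2 (4.99) and Relb (4.29). In LPS cultures at 8 h the order was Nfkb2 (111 CPM per kb), Rela (49.6), Nfkb1 (41.2), Rel (24.9) and Relb (19.8). The place of Nfkb1 depends on the length used: its exons cover 12061 bases and its longest transcript 4149. With transcript lengths for all 5 genes the order in control cultures at 8 h was Rela (16.4 CPM per kb), Nfkb1 (15), Rel (6.28), Nfkb2 (5.95) and Relb (5.09). In LPS cultures at 8 h it was Nfkb2 (132 CPM per kb), Nfkb1 (119.7), Rela (56), Rel (24.9) and Relb (23.5), and in cell-extract cultures Nfkb1 (72.2) came before Nfkb2 (52.1).

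Together Relb and Nfkb2, the genes of the non-canonical dimer, made up 47.4 ± 1.32% of subunit RNA per kb in cell-extract cultures at 8 h and 53 ± 2.47% in LPS cultures, against 26 ± 3.52% in control cultures. The lowest stimulated library, at 46.3%, lay above the highest control library, at 30.8%. At 24 h the share was 42.6 ± 0.189% with cell extract and 47.4 ± 2.5% with LPS, against 25.3 ± 3.8% in control cultures. At 72 h it was 37.6 ± 1.36% with cell extract and 50.7 ± 1.2% with LPS, against 27.7 ± 1.29% in control cultures. These shares rest on exon lengths. With transcript lengths the 8 h shares were 38.2 ± 1.64% with cell extract and 43.6 ± 2.4% with LPS, against 22.4 ± 3.0% in control cultures, and the 6 differences of cell extract and LPS from control ran over 7.61 to 21.2 percentage points, against 9.86 to 26.9 with exon lengths. By exon lengths, in LPS cultures Nfkb2 held 44.9%, 31.6% and 24.4% of subunit RNA at 8, 24 and 72 h, and Relb held 8.05%, 15.8% and 26.2%. In cell-extract cultures Nfkb2 held 32.9%, 27.1% and 18.3% and Relb 14.5%, 15.5% and 19.2%. In control cultures Nfkb2 held 13.7%, 13.0% and 11.6% and Relb 12.4%, 12.4% and 16.1%. At 8 h only the share of Nfkb2 lay above control with both stimuli. The share of Relb then overlapped control with cell extract and lay below it with LPS. In an exact two-sided permutation test over libraries 5 of the 6 differences from control gave p = 0.0286, the smallest these group sizes allow, and 0.0514 after Benjamini-Hochberg adjustment over 9 comparisons. Cell extract at 72 h, with 3 libraries against 3, gave an exact p of 0.1, which is also the smallest possible. None of the 9 passed 0.05 after adjustment. With IL-4 the share was 27.6 ± 7.76%, 20.8 ± 4.51% and 22.4 ± 6.04% at 8, 24 and 72 h, overlapping control at each time (exact permutation p = 0.829, 0.143 and 0.4). At 24 h replicate 1 of IL-4, the library with the fewest counts, stood at 27.4%, and the other 3 IL-4 libraries, at 17.9% to 19.6%, lay below all 4 control libraries, at 22.5% to 30.9%. Without that library the 24 h difference was -6.79 percentage points (exact permutation p = 0.0286, 0.0429 after adjustment), and the 5 differences of cell extract and LPS with the smallest p also had an adjusted p of 0.0429.

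**Figure D3:**
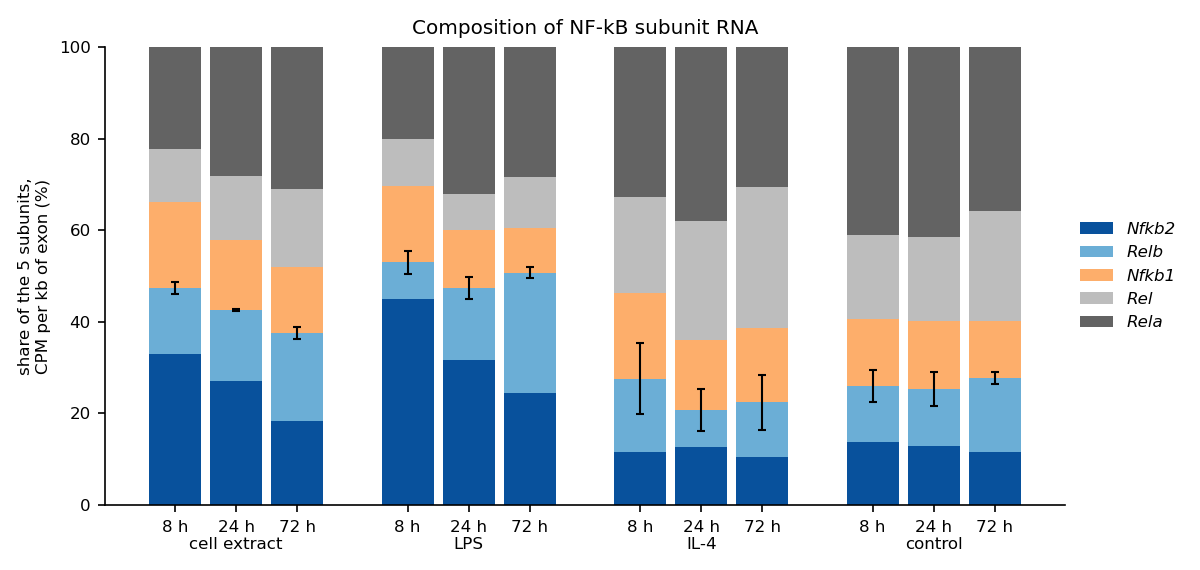
Mean share of each subunit gene in the summed CPM per kb of the 5 subunits, by treatment and time; error bars are the SD over libraries of the summed share of Nfkb2 and Relb. That share is 47.4% at 8 h with cell extract and 53% with LPS, and 26% in control cultures.

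Among the inhibitors, Nfkbia (chr12:55489410-55492647, minus strand) encodes IkB-alpha, which is degraded and resynthesized in each round of activation and whose upstream DNA, printed above, holds 2 marked sites. Nfkbia stood at 671, 742, 743 and 626 CPM in cell-extract cultures at 8 h, at 941, 822, 1093 and 1327 CPM in LPS cultures and at 66.1, 32.5, 54.7 and 41.1 CPM in control cultures. The 3 ranges did not overlap. It was 14.4-fold higher with cell extract (log2 3.84 ± 0.35, adjusted p = 8.97e-12) and 21.6-fold higher with LPS (log2 4.43 ± 0.36, adjusted p = 1.19e-13). Per kb it was the most abundant member at 8 h, at 432, 649 and 30.2 CPM per kb in cell-extract, LPS and control cultures. At 72 h cell-extract cultures stood at 139.9, 169 and 149 CPM and LPS cultures at 775, 569.7, 519 and 653 CPM, against 57, 50.1 and 45.5 CPM in control cultures. The folds were then 2.98 with cell extract (adjusted p = 0.00171) and 12.3 with LPS (adjusted p = 9.02e-10). In IL-4 cultures it varied widely, over 16.1 to 76.4 CPM at 8 h and 26.2 to 83.2 CPM at 72 h, and no change was called (95% intervals -0.69 to 0.64, -0.45 to 0.92 and -0.92 to 0.60 at 8, 24 and 72 h). The 6 groups of cell extract and LPS took the first 6 places by mean, of which only LPS at 72 h overlapped the one above it, cell extract at 8 h.

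Nfkbie (chr17:45555703-45563169, plus strand), which encodes IkB-epsilon, was low without stimulation. At 8 h it stood at 104, 91.3, 89.1 and 98.7 CPM with cell extract, at 177, 157, 162 and 186 CPM with LPS and at 9.93, 5.01, 4.64 and 5.22 CPM in control cultures. The 3 ranges lay far apart, with folds of 15.4 for cell extract (log2 3.95 ± 0.26, adjusted p = 1.36e-15) and 27.4 for LPS (log2 4.78 ± 0.27, adjusted p = 2.02e-18). At 24 h the folds were 11.4 and 21.4. At 72 h the levels were 22.7, 19.1 and 22.4 CPM with cell extract and 61.7, 87.5, 85.1 and 87.7 CPM with LPS, against 4.45, 3.2 and 4.28 CPM in control cultures. Nfkbie was still 5.38-fold higher with cell extract (adjusted p = 2.75e-06) and 20.3-fold higher with LPS (adjusted p = 3.64e-13). IL-4 and control groups, at means of 3.95 to 6.2 CPM, took the last 6 places, with neighbours overlapping.

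Nfkbib (chr7:28758251-28767512, minus strand), which encodes IkB-beta, had no decamer match in its window. At 8 h it stood at 113, 79.4, 84.3 and 89.7 CPM with cell extract, at 234, 170.2, 207 and 263 CPM with LPS and at 40.8, 24.3, 30.9 and 32.4 CPM in control cultures. The 3 ranges were separate, at 2.86-fold (log2 1.52 ± 0.22, adjusted p = 7.02e-07) and 6.82-fold (log2 2.77 ± 0.23, adjusted p = 2.93e-13) above control. At 24 h it was 2.01-fold higher with cell extract and 4.07-fold higher with LPS. By 72 h cell-extract cultures, at 34.5 ± 3.61 CPM, overlapped control cultures, at 36.9 ± 6.65 CPM (log2 -0.09, 95% interval -0.64 to 0.47), while LPS cultures, at 66.8 ± 13.9 CPM, were 1.79-fold higher (adjusted p = 0.0105). That call was lost without control replicate 1 or 3 or without the Rn18s-rs5 libraries (adjusted p of 0.0612 to 0.0976). The first 5 places by mean went to LPS at 8 and 24 h, cell extract at 8 h, LPS at 72 h and cell extract at 24 h, and the other 7 groups, at 24.8 to 38.8 CPM, each overlapped the next. Exons of Nfkbib overlap those of Ccer2 and Sirt2 on the opposite strand, and their reads cannot be told apart.

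Nfkbiz (chr16:55811375-55838899, minus strand) encodes IkB-zeta, a nuclear cofactor for a subset of inflammatory genes such as Il6. It stood at 191, 199, 188 and 208 CPM in cell-extract cultures at 8 h, at 231, 232, 264 and 252 CPM in LPS cultures, at 2.86, 4.54, 4.97 and 3.48 CPM in IL-4 cultures and at 14.8, 6.78, 5.28 and 6.82 CPM in control cultures. Cell extract and LPS lay far above control, at 23.2-fold (log2 4.54 ± 0.32, adjusted p = 7.68e-15) and 28.9-fold (log2 4.85 ± 0.32, adjusted p = 3.39e-16), the largest fitted change of the 10 members with either at 8 h. The 4 IL-4 libraries at 8 h lay below all 4 control libraries, but the difference did not pass in edgeR (log2 -1.22, interval -2.06 to -0.38, adjusted p = 0.0595) and passed in DESeq2 (log2 -1.14, adjusted p = 0.0259). At 24 h Nfkbiz stood at 112, 103 and 107 CPM with cell extract and at 68.5, 70.2, 58.2 and 68.6 CPM with LPS, against 9.88, 6.85, 6.75 and 6.43 CPM in control cultures, at 14.7-fold and 9.11-fold. At 72 h cell extract, at 47.9 ± 0.378 CPM, and LPS, at 50.1 ± 12.3 CPM, overlapped each other. They were 4.45-fold (adjusted p = 3.08e-05) and 4.8-fold (adjusted p = 3.81e-06) above control cultures, at 11 ± 2.04 CPM. The lowest 6 means, 3.96 to 13.8 CPM, were those of the IL-4 and control groups, with neighbours overlapping.

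Bcl3 (chr7:19808462-19822770, minus strand) encodes a nuclear IkB that binds p50 and p52 dimers. At 8 h it stood at 24.6, 18.9, 21 and 21.5 CPM with cell extract, at 15.8, 18.3, 22 and 24.9 CPM with LPS and at 5.92, 5.11, 5.59 and 6.29 CPM in control cultures. Both stimulated groups lay above control and overlapped each other, at 3.76-fold (log2 1.91 ± 0.23, adjusted p = 1.04e-08) and 3.57-fold (log2 1.83 ± 0.23, adjusted p = 1.55e-08). Its highest mean was in LPS cultures at 24 h, 29.8 ± 3.76 CPM, and the next 5 groups, all of cell extract or LPS, each overlapped the one above. At 72 h it stood at 17.2, 17.6 and 22.3 CPM with cell extract (1.92-fold, adjusted p = 0.0136) and at 32.8, 22.6, 32 and 24.9 CPM with LPS (2.74-fold, adjusted p = 6.01e-05), against 8.06, 13.5 and 8.56 CPM in control cultures. All stimulated libraries lay above all control libraries at 72 h too. The call with cell extract at 72 h was lost without cell extract replicate 4 (adjusted p = 0.0725) or control replicate 1 (adjusted p = 0.101). Exons of Bcl3 overlap those of Gm16175 on the opposite strand, and their reads cannot be told apart.

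Set directly against LPS at the same time, cell extract left 6 of 10 members lower at 8 h, where 15.1% of all tested genes were lower, 5 of 10 at 24 h (8.76%) and 6 of 10 at 72 h (11.4%). Rela, Nfkb2, Nfkbib and Nfkbie were lower at all 3 times. The call of Rela was lost at 24 h without cell extract replicate 2 (adjusted p = 0.0534). At 72 h it was lost in 8 settings (adjusted p of 0.0503 to 0.121): without cell extract replicate 2 or 3, LPS replicate 2, 3 or 4 or LPS at 8 h replicate 1, with no filter and without the Rn18s-rs5 libraries. No member was higher by edgeR at any time. The shares of all tested genes called higher are not given for cell extract against LPS, so this absence cannot be weighed. At an unadjusted p under 0.05 the counts of higher members were 0, 2 and 0 at 8, 24 and 72 h, and DESeq2 called 0 at each time. At 8 h Nfkb2 had the largest difference (2.53-fold lower, log2 -1.34 ± 0.22, adjusted p = 5.73e-06), followed by Nfkbib (2.39-fold lower, adjusted p = 1.32e-05). Nfkb1, Rel, Rela and Nfkbie were 1.66-fold, 1.66-fold, 1.67-fold and 1.78-fold lower, and for these 6 members all 4 cell-extract libraries lay below all 4 LPS libraries. No difference was detected for Relb and Bcl3 at 8 h, with 95% intervals of the log2 difference of -0.53 to 0.44 and -0.37 to 0.52. Nfkbia and Nfkbiz had every cell-extract library below every LPS library at 8 h, but did not pass (intervals -1.22 to 0.05 and -0.86 to 0.23).

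At 72 h the members furthest below LPS were Nfkbia, 4.12-fold lower with cell extract (log2 -2.04 ± 0.36, adjusted p = 3.86e-05), and Nfkbie, 3.77-fold lower (log2 -1.92 ± 0.26, adjusted p = 5.74e-07). Nfkb2 and Relb were 2.14-fold and 2.08-fold lower, and for these 4 members all 3 cell-extract libraries lay below all 4 LPS libraries. No difference was detected for Rel, Nfkb1 and Nfkbiz then, with intervals of -0.30 to 0.39, -0.59 to 0.29 and -0.72 to 0.51. At 24 h Nfkbiz ran the other way without passing: it was 1.62-fold higher with cell extract (log2 0.69, interval 0.11 to 1.28, adjusted p = 0.0995), with 3 of 3 cell-extract libraries above all 4 LPS libraries. Nfkb2 at 24 h (log2 -0.67 ± 0.24, adjusted p = 0.0496) lost its call without any 1 of 35 libraries, and Nfkbia at 24 h without any 1 of the 7 libraries compared or without the Rn18s-rs5 libraries (adjusted p of 0.0507 to 0.158). The count of 5 at 24 h fell to 2 without replicate 2 of cell extract at 24 h, and to 3 without replicate 3 or 4 of that group or without any 1 of the 4 LPS libraries at 24 h.

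**Figure D4:**
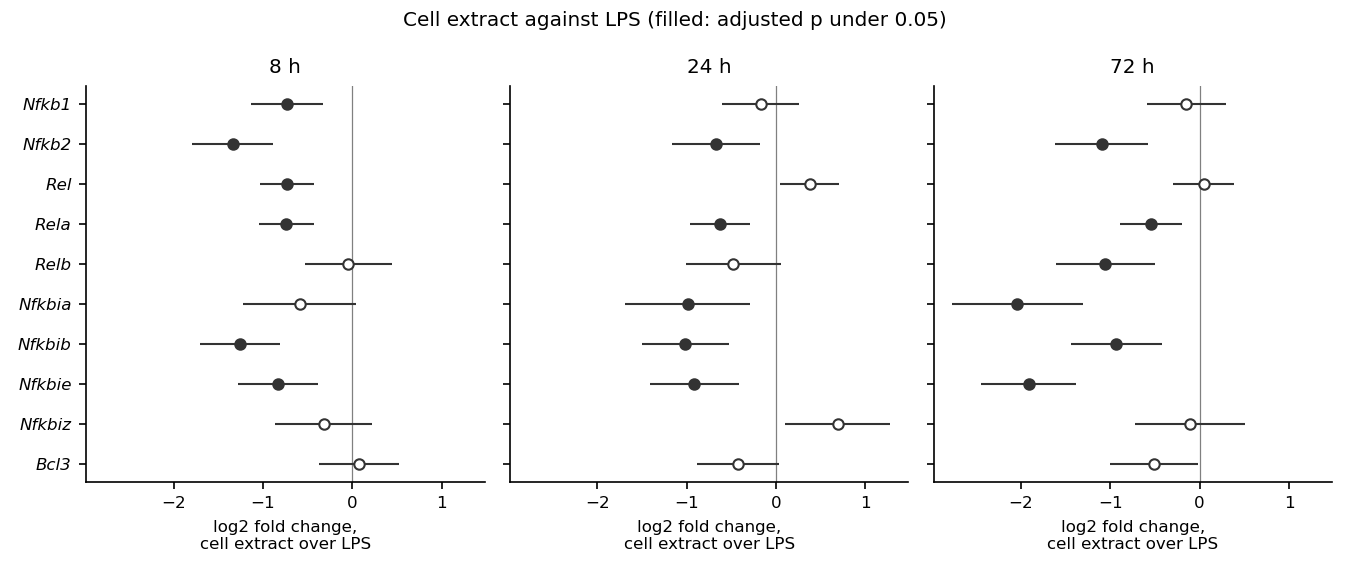
Log2 fold change of each member in cell-extract over LPS cultures at 8, 24 and 72 h; bars are 95% intervals and filled points passed an adjusted p under 0.05. The differences for Nfkbia and Nfkbie are -0.59 and -0.83 at 8 h and -2.04 and -1.92 at 72 h, while that for Nfkb1 is -0.73 at 8 h and -0.15 at 72 h.

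Over time, 9 of 10 members were lower at 72 h than at 8 h in cell-extract cultures (13.4% of all tested genes were lower), with Bcl3 the exception (log2 -0.16, interval -0.64 to 0.32). In LPS cultures 7 of 10 were lower (21.9%). The other 3 were Relb (log2 -0.20, interval -0.70 to 0.30), Nfkbia (log2 -0.74, adjusted p = 0.0538) and Bcl3 (log2 0.43, interval -0.03 to 0.89). In control cultures edgeR called 0 of 10 in either direction (13.5% of tested genes were called). At an unadjusted p under 0.05 it had 1 higher and 3 lower, and DESeq2 called 1, Bcl3, higher (log2 0.90, adjusted p = 0.0201). In IL-4 cultures 2 of 10 were higher at 72 h (11.5%), Nfkbiz (3.76-fold, log2 1.91 ± 0.41, adjusted p = 0.000767) and Bcl3 (1.9-fold, adjusted p = 0.0224). Nfkbiz stood at 6.48, 28.9 and 6.11 CPM in IL-4 cultures at 72 h, and all 3 lay above the 4 at 8 h. Without replicate 3 of the 72 h group, Nfkbiz had a log2 change of 0.81 (adjusted p = 0.0655) and Bcl3 of 0.31 (adjusted p = 0.453). Bcl3 also lost its call without replicate 1 or 2 of the 8 h group, and both lost theirs in the fit of the 2 groups alone (adjusted p = 0.074 for Nfkbiz and 0.247 for Bcl3). In the order of replicates 2, 3 and 4, that group stood at 26.2, 83.2 and 28 CPM for Nfkbia, 59.4, 96.8 and 60.8 CPM for Nfkb1, 11.2, 29.3 and 12.7 CPM for Relb, 2.35, 11.1 and 3.89 CPM for Nfkbie and 6.03, 15.9 and 5.73 CPM for Bcl3, each with replicate 3 highest.

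The effect of cell extract, that is its difference from control, was smaller at 72 h than at 8 h for 9 of 10 members (8.75% of all tested genes had a lower effect). The largest declines were those of Nfkbiz (log2 -2.38 ± 0.48, adjusted p = 0.000342) and Nfkbia (log2 -2.27 ± 0.49, adjusted p = 0.000752), and the smallest called was that of Rela (log2 -0.68 ± 0.24, adjusted p = 0.0393). The call of Rela was lost in 13 settings (adjusted p of 0.0536 to 0.179): with no filter, the replicate block, the compared groups alone and without the Rn18s-rs5 libraries, and without cell extract replicate 1, 2 or 4 at 8 h or 2 or 4 at 72 h, or control replicate 3 or 4 at 8 h or at 72 h. Without control replicate 1 at 72 h the calls of Nfkbie (adjusted p = 0.121) and Relb (adjusted p = 0.0719) were lost, and that of Nfkbie also without the Rn18s-rs5 libraries (adjusted p = 0.0617). Bcl3 did not pass (log2 -0.97, adjusted p = 0.0567). The effect of LPS declined for 6 of 10 (14.3%): Nfkb1, Nfkb2, Rel, Rela, Nfkbib and Nfkbiz, with log2 differences between -2.59 and -0.87. It was not called for Relb (log2 -0.35, interval -1.13 to 0.44), Nfkbia (-0.81, interval -1.77 to 0.14), Nfkbie (-0.43, interval -1.36 to 0.49) or Bcl3 (-0.38, interval -1.12 to 0.36). Whether the decline itself differed between cell extract and LPS was not tested. The effect of IL-4 changed for 0 of 10 by edgeR (16.1% of tested genes were called), with 1 higher and 0 lower at an unadjusted p under 0.05 and 0 by DESeq2.

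The other genes of the pathway were read from 3 lists. Of 23 genes of IKK and the proteins upstream of it, 11, 10 and 11 were called higher with cell extract at 8, 24 and 72 h and 1, 2 and 2 lower, while with LPS 13, 13 and 10 were higher and 2, 2 and 3 lower. With IL-4 1, 1 and 5 were higher and 2, 1 and 2 lower. As shares of the list the higher counts were 47.8%, 43.5% and 47.8% with cell extract, 56.5%, 56.5% and 43.5% with LPS and 4.35%, 4.35% and 21.7% with IL-4, beside 13.0%, 11.7% and 14.2%, 21.3%, 18.6% and 16.1%, and 4.29%, 4.74% and 13.2% of all tested genes. The IL-4 shares called higher at 8 h and 24 h were near those of all genes. The shares lower were 4.35%, 8.70% and 8.70% with cell extract, 8.70%, 8.70% and 13.0% with LPS and 8.70%, 4.35% and 8.70% with IL-4. Those of all tested genes called lower were 17.2%, 10.4% and 12.2%, 24.1%, 19.3% and 15.4%, and 4.04%, 4.76% and 10.5%. Median log2 changes were 0.37, 0.33 and 0.51 with cell extract and 0.37, 0.58 and 0.33 with LPS. The catalytic subunit Ikbkb was not called in any of the 9 comparisons with control (log2 between -0.25 and 0.19). Chuk, the other catalytic subunit, was called in 1, cell extract at 72 h (1.63-fold, adjusted p = 0.0163). The regulatory subunit Ikbkg rose 1.83-fold with cell extract at 8 h (126 ± 5.46 CPM, against 68.7 ± 5.21 CPM in control cultures; adjusted p = 1.19e-07) and 1.24-fold with LPS, and was 1.47-fold higher with cell extract than with LPS (adjusted p = 0.000235). The IKK-related kinase Ikbke rose 2.92-fold with cell extract and 3.85-fold with LPS at 8 h. Map3k14, the kinase of the non-canonical arm, was higher with LPS at 24 h (1.67-fold, adjusted p = 0.0202) and lower with IL-4 at 72 h (2.49-fold, adjusted p = 0.00263). Map3k8, a kinase that binds the Nfkb1 precursor, rose 1.5-fold with cell extract and 2.48-fold with LPS at 8 h and was 1.5-fold lower with IL-4 (adjusted p = 0.017).

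A list of 16 regulators held genes that restrain the pathway, such as Tnfaip3 and Tnip1. It also held Sharpin, Rnf31 and Rbck1, which do not restrain it, so its counts are not those of restraining genes alone. In this list 6, 7 and 5 were higher with cell extract at 8, 24 and 72 h and 1, 1 and 2 lower. With LPS 9, 8 and 8 were higher and 1, 2 and 1 lower. With IL-4 2, 1 and 3 were higher and 1, 3 and 1 lower. The shares higher were 37.5%, 43.8% and 31.2% with cell extract, 56.2%, 50% and 50% with LPS and 12.5%, 6.25% and 18.8% with IL-4. The shares lower were 6.25%, 6.25% and 12.5% with cell extract, 6.25%, 12.5% and 6.25% with LPS and 6.25%, 18.8% and 6.25% with IL-4. Both are to be read beside the same shares of all tested genes. Median log2 changes were 0.10, 0.29 and 0.20 with cell extract and 0.73, 0.63 and 0.62 with LPS. Tnfaip3, which encodes the ubiquitin-editing enzyme A20, stood at 350.5 ± 29.5 CPM with cell extract at 8 h and 663 ± 19.1 CPM with LPS, against 47.4 ± 10.6 CPM in control cultures (7.37-fold and 13.9-fold). At 72 h it was still 3.88-fold and 6.99-fold higher, and 2.14-fold higher with IL-4 (adjusted p = 0.00143). The IL-4 libraries then spread widely, over 37.4 to 91.0 CPM (55.5 ± 30.8 CPM), against 25.2 to 27.3 CPM in control cultures. Its partner Tnip1 rose 4.96-fold with cell extract and 5.34-fold with LPS at 8 h, and 1.48-fold and 3.57-fold at 72 h. Cyld, a deubiquitinase, rose 1.94-fold with LPS at 8 h (adjusted p = 9.72e-07), and with cell extract it was not called at 8 h (log2 0.27) but was 1.37-fold higher at 24 h (adjusted p = 0.032) and 1.49-fold higher at 72 h (adjusted p = 0.0155). Nfkbid, a further nuclear IkB protein, rose 2.0-fold with cell extract and 2.04-fold with LPS at 8 h and was not called with either later.

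Of 26 known targets of NF-kB, 26, 23 and 15 were higher with cell extract at 8, 24 and 72 h and 0, 1 and 2 lower, with median log2 changes of 3.20, 3.60 and 1.64. With LPS 26, 23 and 20 were higher and 0, 1 and 2 lower, with medians of 5.91, 4.50 and 3.15. With IL-4 1, 2 and 1 were higher and 2, 4 and 5 lower. The shares higher were 100.00%, 88.5% and 57.7% with cell extract, 100.00%, 88.5% and 76.9% with LPS and 3.85%, 7.69% and 3.85% with IL-4. Those of all tested genes were 13.0%, 11.7% and 14.2%, 21.3%, 18.6% and 16.1%, and 4.29%, 4.74% and 13.2%. The IL-4 share called higher was near that of all genes at 8 h and below it at 72 h. The shares lower were 0%, 3.85% and 7.69% with cell extract and the same with LPS. With IL-4 they were 7.69%, 15.4% and 19.2%. Those of all tested genes called lower were 17.2%, 10.4% and 12.2%, 24.1%, 19.3% and 15.4%, and 4.04%, 4.76% and 10.5%. Against LPS, cell extract left 15, 11 and 13 of the 26 lower and 0, 0 and 1 higher. Of all tested genes 15.1%, 8.76% and 11.4% were lower, and the shares higher are not given. Traf1, an adaptor of TNF receptors, stood at 107 ± 10.3 CPM with cell extract at 8 h and 270.4 ± 17.1 CPM with LPS, against 8.69 ± 5.07 CPM in control cultures (12.3-fold and 31.2-fold). At 72 h it was 2.35-fold and 17.7-fold higher. The adhesion molecule Icam1 rose 19.5-fold with cell extract and 37.4-fold with LPS at 8 h, and the survival factor Birc3 4.64-fold and 6.26-fold. Sod2, the mitochondrial superoxide dismutase, stood at 1524 ± 72.8 CPM with cell extract and 1502 ± 224 CPM with LPS at 8 h, against 108 ± 16.1 CPM in control cultures, and was 2.57-fold lower with cell extract than with LPS at 72 h (adjusted p = 5.14e-05).

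As a description of pattern, each member's mean log2 CPM over the 12 groups was compared with that of every other tested gene that averaged at least 1 CPM, by Pearson's r over 12 points that share an isolate. Closest to Nfkb1 were Lad1 (0.97), Ube2s (0.96) and Gm16181 (0.96), and closest to Nfkb2 were Il12b (0.99), Tnfaip3 (0.99) and Ptgs2 (0.99). For Rel they were Srsf10 (0.94), Mtf2 (0.92) and Kdm6b (0.91), and for Rela Igsf8 (0.98), Mllt6 (0.97) and Lrp11 (0.97). Relb was nearest to Fas (0.98), Gimap6 (0.98) and Il1b (0.97). Nfkbia was nearest to Il1b (0.99), Gm14005 (0.99) and Socs3 (0.99), Nfkbib to Batf (0.97), Myd88 (0.97) and Gch1 (0.97), and Nfkbie to Rab32 (1.00), Il12a (0.99) and Fas (0.99). Nfkbiz lay closest to Nrp2 (0.98), Vasp (0.98) and Met (0.97), and Bcl3 to Lrrc75a (0.97), Msr1 (0.96) and Filip1l (0.96). Among the members themselves the closest pair was Nfkbia and Nfkbie (0.99) and the least alike were Rel and Bcl3 (0.27).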

How the data were processed

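The deposited table held raw read counts per gene, 1 column per library, and values were whole numbers. Per the submitters' processing notes the authors used cutadapt, Bowtie2, TopHat2 2.1.1, HTSeq, DESeq and edgeR with build mm10, while annotation release and strand setting were not given in the sources used here. Rows that name no gene stayed out, and reads ambiguous between genes were 5.39% of counts.

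From these counts edgeR 4.0.16 (R 4.3.3, TMM scaling, filter at a count of 10) fitted 12 groups in 44 libraries by quasi-likelihood for 14537 genes, with 32 residual degrees of freedom and Benjamini-Hochberg adjustment within each of 19 comparisons. DESeq2 1.42.0 was an alternative. The test was also run on simulated counts of 2 groups with the same spread for all genes. That setting is simpler than the fit of 12 groups and does not test it. The text names the 10 members in every comparison, 14 genes of the lists and the 3 genes most like each member. The members and lists were chosen with earlier results of these data known. Replicate numbers from the titles were taken to pair the samples in 3 of 12 comparisons between treatments. These were cell extract and LPS against control at 8 h and LPS against control at 24 h. Same-numbered pairs there had r of 0.116 to 0.594. The other 9 were not, though the split was not sharp. Among those 9, cell extract against control at 72 h shared only 2 numbers, both of which correlated (r of 0.249 and 0.284). Same-numbered r was also positive throughout for cell extract against LPS (0.0979 to 0.174) and against control (0.0261 to 0.176) at 24 h. The same held for IL-4 against control at 8 h (0.0575 to 0.315). Cell extract against LPS at 8 h had r of 0.178, 0.603, 0.444 and -0.0268 for replicates 1, 2, 3 and 4. It was not taken as paired, although both groups were taken as paired with the same control cultures. At 72 h cell extract against LPS had r of 0.530, 0.372 and -0.141 for replicates 2, 3 and 4. Within the 3 paired comparisons, replicate 1 of cell extract at 8 h correlated more with another control number (0.296) than with its own (0.116). Replicate 3 of LPS at 8 h did likewise (0.352 and 0.296). This pairing was not used in the main fit, which held no term for replicate number, nor in the permutation test of shares. A replicate block was fitted only as another setting. Depth of 0.908 to 26.6 M counts limits precision most for Bcl3 and Nfkbie. Intervals are at 95%.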

Additional observations from a re-analysis of the deposited data

Results flagged for a closer look

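Dixon's criterion was applied to 10 members in 8 groups of 4 libraries, 80 sets in all. It marks about 1 in 20 of independent sets by chance, but these sets share libraries and were not weighed against that rate. In 14 sets 1 library stood far from the other 3. Of these, 6 were in IL-4 at 24 h replicate 1, the library with the fewest counts (0.908 M): Nfkb1 was low at 29.4 CPM and Rel low at 49 CPM, while Relb was high at 14.2 CPM, Nfkbia high at 73 CPM and Nfkbib high at 75.2 CPM. Nfkbie was also high there, at 5.45 CPM. In control at 8 h replicate 1 Nfkbie was high at 9.93 CPM and Nfkbiz at 14.8 CPM, and in control at 24 h replicate 1 Nfkbiz was high at 9.88 CPM. LPS at 72 h replicate 1, a library of 1.10 M counts, had a low Nfkbie of 61.7 CPM. The others were Nfkb2 in LPS at 8 h replicate 1 (high, 563 CPM), Rela in IL-4 at 8 h replicate 2 (high, 47.9 CPM), Nfkbib in control at 24 h replicate 2 (high, 26.3 CPM) and Nfkbiz in LPS at 24 h replicate 3 (low, 58.2 CPM). The part of depth in these values was not tested.

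The effect of cell extract against control differed between 72 h and 8 h, by a test of the difference itself in edgeR, for 9 members. The log2 differences were -2.38 for Nfkbiz, -2.27 for Nfkbia, -1.90 for Nfkb2, -1.61 for Nfkbib, -1.52 for Nfkbie, -1.51 for Nfkb1, -1.36 for Relb, -1.21 for Rel and -0.68 for Rela. The effect of LPS differed for 6 members, with log2 differences of -2.59 for Nfkbiz, -2.13 for Nfkb2, -2.09 for Nfkb1, -1.98 for Rel, -1.93 for Nfkbib and -0.87 for Rela.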

How the results depend on the processing

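The fits were recomputed under 7 other settings and with each of 44 libraries left out, and the subunit shares with 2 other lengths and with single libraries left out. The count of members called moved by over 1.5 times in 7 of 19 comparisons under at least 1 of these. With IL-4 at 8 h it was 0 with the compared groups fitted alone, 1 without the libraries led by Rn18s-rs5 (chosen after seeing the data) and 0 to 3 with single libraries left out. At 24 h it was 0, 0 and 0 to 1 under the same settings. At 72 h it was 1 with RLE size factors, 0 alone, 1 without the Rn18s-rs5 libraries and 0 to 2. Between 72 h and 8 h in IL-4 cultures it was 0 alone and 1 to 2, and for the IL-4 effect difference 2 with no filter and 0 to 2. In control cultures between 72 h and 8 h it was 1 with RLE, DESeq2 or no filter, 2 without the Rn18s-rs5 libraries and 0 to 1. For cell extract against LPS at 24 h it was 9 alone, 3 without the Rn18s-rs5 libraries and 2 to 6.

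Genes called higher in the lists moved as follows. For IKK with IL-4 at 72 h the count was 3 with RLE, 1 alone, 8 without the 3 libraries set apart (control at 8 h and 24 h and IL-4 at 24 h, replicate 1), 2 without the Rn18s-rs5 libraries and 2 to 7 with single libraries left out. For the list of regulators it was 3 without the Rn18s-rs5 libraries and 3 to 6 with cell extract at 72 h, and 1 with no filter, alone or without the Rn18s-rs5 libraries and 1 to 3 with IL-4 at 8 h. For targets with IL-4 it was 4 without the 3 libraries and 1 to 3 at 8 h, 1 without the Rn18s-rs5 libraries and 1 to 3 at 24 h, and 3 with no filter or without the 3 libraries, 2 with the replicate block and 1 to 4 at 72 h.

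Values near 0 changed sign. Rel with cell extract at 72 h was -0.0044 with RLE, -0.016 with DESeq2 and -0.012 alone, and between -0.069 and 0.35 with single libraries left out. Rel with LPS at 72 h was -0.021 with RLE, -0.057 with DESeq2, -0.00064 without the 3 libraries, -0.14 without the Rn18s-rs5 libraries, and between -0.13 and 0.30. Nfkbib with cell extract at 72 h was 0.0998 with the replicate block and between -0.18 and 0.062. The IL-4 difference in the Relb and Nfkb2 share was -0.586 percentage points at 8 h without dividing by length and between -2.25 and 3.49 with single libraries left out, and lay between -6.79 and -2.72 at 24 h, where -6.79, without IL-4 replicate 1, passed the test (exact permutation p = 0.0286, adjusted 0.0429). The cause of these shifts was not tested.

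In the comparisons taken as paired, the replicate block changed no call. Elsewhere it moved Relb with cell extract at 72 h to an adjusted p of 0.0152, Nfkb2 for cell extract against LPS at 24 h to 0.0608 and Rela in the cell extract effect to 0.0571. Shallow libraries limit the low members, since 3 counts were the lowest seen.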
